A study of Bos taurus with 2 samples.

Results

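The mitochondrial CpG sites were all rows of the deposited CpG counts whose sequence name was M, and they comprised 357 CpG sites of 29493752 in all. Each site holds 1 cytosine on the plus strand, which is the strand printed in the reference, and 1 on the minus strand, so there were 714 mitochondrial cytosines. They were measured by whole genome bisulfite sequencing (WGBS) of bone, labelled as coming from female Holstein cattle, in 2 samples named Bone_1 and Bone_2 that form a single group without treatment. The labels give no age and do not say whether the samples came from 1 or 2 animals, so the spread between them may be technical. In WGBS, bisulfite turns unmethylated cytosines into bases read as thymine, so a cytosine is called methylated or not by each read that covers it, and a level is the percentage of calls that were methylated.

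Mitochondria carry their own small circular genome in many copies per cell, encoding rRNAs, tRNAs and subunits of the respiratory chain, with a noncoding control region where replication and transcription start. The strands of this circle differ in base composition, one being richer in guanine and the other in cytosine. Mitochondrial DNA is packed without histones, and most of its cytosines are read as unmethylated in bisulfite data. Methylated and unconverted cytosines give the same call and cannot be told apart in these counts. The conversion rate of the added lambda DNA was not analysed here.

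The first CpG site began at position 94 and the last cytosine lay at position 16336 of sequence M, with a median distance of 27 bp between neighbouring sites and a largest gap of 291 bp. Positions are those of the deposited counts, for which the submitters' processing notes name the ARS-UCD1.2 build. The gene table at hand is of ARS-UCD2.0, so sites were not assigned to genes. The counts themselves give the base after each CpG on both strands, and these 4-base contexts are shown for the cytosines on which the results turn, each read 5′ to 3′ on its own strand with the CpG in capitals.
minus-strand cytosine at M:13417, the highest one with deep coverage: tCGg
minus-strand cytosine at M:364, the highest by mean level with at least 100 calls in each sample: cCGg
plus-strand cytosine at M:5766, the first of a group of high ones: cCGg
plus-strand cytosine at M:5800, in the same group: tCGc
plus-strand cytosine at M:5820, in the same group: cCGg

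The strands were covered very unequally in Bone_1. Plus-strand cytosines received 26818 of its 1584812 mitochondrial calls, or 1.69% (95% Wilson interval 1.67 to 1.71%), and minus-strand cytosines received 58.1 times as many. In Bone_2, the plus strand received 707853 of 1715910 calls, or 41.3% (41.2 to 41.3%), and the minus strand 1.42 times as many. Over the samples, the plus-strand share was 21.5% ± 28.0 (SD, n = 2), a mean that describes neither of them. Wilson intervals cover counting error only, because the reads carry no molecular identifiers and 1 read can call several CpG sites.

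Single cytosines showed the same inequality. In Bone_1, a plus-strand cytosine had a median of 39 calls and at most 448, whereas a minus-strand cytosine had a median of 4013 and at most 10171. In Bone_2, the medians were 1859 on the plus strand and 2698 on the minus strand. At 301 of 357 sites, under 10% of the calls in Bone_1 were on the plus strand, against 1 site in Bone_2. The plus-strand share was lower in Bone_1 at 355 sites, the exceptions being the site at M:1175-1176, with 59.1% in Bone_1 and 57.3% in Bone_2, and the site at M:16335-16336, with no plus-strand call in either sample.

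**Figure D1:**
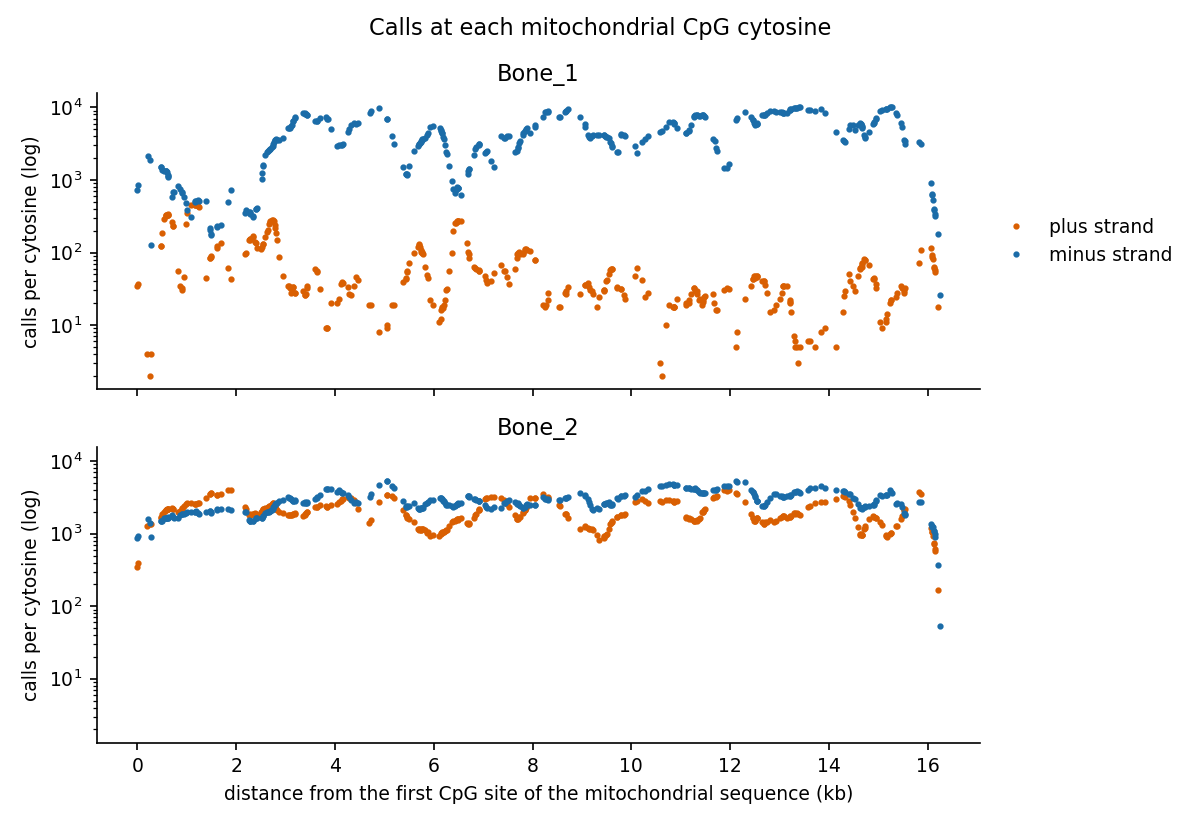
Calls at each mitochondrial CpG cytosine (log axis) against the distance from the first CpG site in kb, with plus-strand cytosines in orange and minus-strand cytosines in blue, Bone_1 above and Bone_2 below; cytosines without a call are not drawn. In Bone_1 the plus strand lies mostly below 100 calls and the minus strand mostly above 1000, whereas in Bone_2 both lie mostly between 1000 and 5328.

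Along the circle, the minus strand of Bone_1 rose and fell far more than that of Bone_2. By windows of 1000 bp, of which there were 17, minus-strand cytosines of Bone_1 averaged 409 calls in the window from 1001 to 2000 and 9204 in the window from 13001 to 14000. Those of Bone_2 ranged only from 963 to 4318. The plus strand of Bone_1 was deepest, at 209 calls per cytosine, in the window where its minus strand was shallowest, and shallowest, at 16.3, where its minus strand was deepest. Across sites of Bone_1, the calls of the strands were negatively related (Spearman's rho -0.65, Pearson's r -0.54, n = 357 sites). In Bone_2, the relation was weakly positive (rho 0.19, r 0.33). Between the samples, minus-strand calls were related over cytosines (rho 0.67, n = 357) and plus-strand calls hardly so (rho 0.01, n = 356). These coefficients are descriptions, since nearby sites share reads.

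The plus-strand share of a window in Bone_1 ranged from 0.177% (13001 to 14000) to 33.9% (1001 to 2000), and it was under 1% in 10 windows. In Bone_2, it ranged from 31.6% (9001 to 10000) to 60.4% (1001 to 2000), and it was over 50% in 3 windows. Calls of each strand were compared by Fisher's exact test (two-sided), chosen after these values were seen and adjusted by the Benjamini-Hochberg method over all 2223993 windows of the series. The share differed between the samples in all 17 mitochondrial windows, each time lower in Bone_1. Of all windows, however, 71.2% were called in this test, with 35.5% lower in Bone_1. With windows of 2000 bp, all 9 were called, against 74.8% of all such windows. Being called was thus common in the genome. The test compares these libraries and treats calls as independent.

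Unequal strands in Bone_1 were not limited to mitochondrial DNA. Over whole autosomes, the plus strand held 49.3 to 52.7% of the calls in Bone_1 and 49.9 to 50.4% in Bone_2. Among autosomal windows with at least 500 calls, however, 17.5% of 187674 had at most 10% of their calls on the plus strand in Bone_1, against 0.247% of 16625 in Bone_2. These were different kinds of windows, with median levels of 82.3% in Bone_1 and 10.6% in Bone_2, so the shares are not matched between the samples. Among the other 840 sequences with at least 10000 calls in Bone_1, 3 had a lower plus-strand share than the mitochondrial sequence, all of them unplaced. In Bone_2, 90 of 515 did.

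Among autosomal windows, the median share moved with the bases next to CpG, with wide overlap between classes. Among bases flanking mitochondrial CpG sites, read on the plus strand, cytosine made up 28.7% and guanine 13.6%, whereas both made up 24.6% around autosomal sites. In autosomal windows with 10 to 30 CpG sites and at least 100 calls, the median plus-strand share in Bone_1 was 84.2% where guanine exceeded cytosine by over 40 points and fell to 16.9% where cytosine exceeded guanine by at least 40 points. In Bone_2, the corresponding medians were 57.8% and 43.4%. The 10th to 90th percentiles of these classes overlapped, at 25.8 to 98.9% and 1.04 to 76.7% in Bone_1. In Bone_2, they were 40.3 to 75.6% and 24.3 to 60.7%. Where cytosine exceeded guanine by 0 to 20 points, the class of most mitochondrial windows, the autosomal median was 40.6% in Bone_1 (10th to 90th percentile 4.56 to 90.8%) and 47.7% in Bone_2 (29.7 to 66.0%). Most mitochondrial windows of Bone_1 lay under that range. The part of base composition in the mitochondrial shares was not tested.

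**Figure D2:**
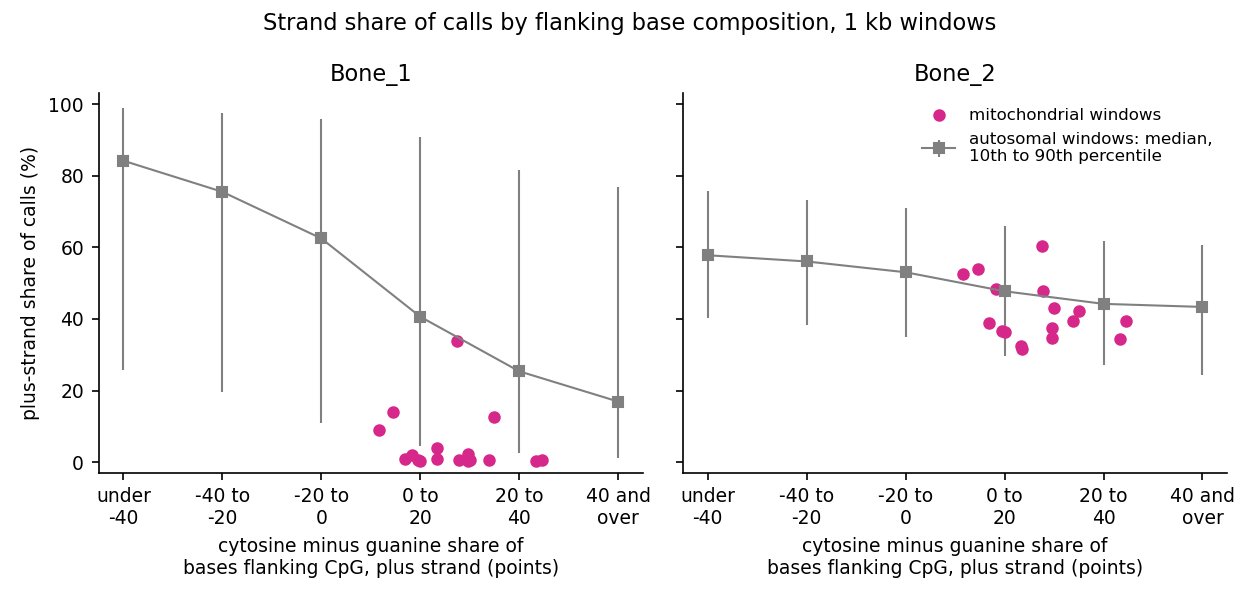
Plus-strand share of calls in percent against the cytosine minus guanine share of bases flanking CpG on the plus strand, in percentage points, for 1 kb windows of Bone_1 (left) and Bone_2 (right). Grey squares and bars give the median and the 10th to 90th percentile of autosomal windows by class, and pink points are the 17 mitochondrial windows, which lie at or under 33.9% in Bone_1 and between 31.6 and 60.4% in Bone_2.

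Depth set the precision of all levels. Mitochondrial sites averaged 4439 calls in Bone_1 (SD 2822 between sites) and 4806 in Bone_2 (SD 1372), which were 259 and 322 times the autosomal means (291 ± 43.9, SD, n = 2). Mitochondrial calls made up 0.272% of all calls in Bone_1 and 0.390% in Bone_2. On the minus strand, 356 of 357 cytosines had at least 100 calls in either sample. On the plus strand, 356 had as many in Bone_2 but 78 in Bone_1. Depth was lower at the ends of the linear reference, which cuts the circle open. Within 300 bp of an end, minus-strand cytosines averaged 491 calls in Bone_1 and 952 in Bone_2, against 4499 and 2889 elsewhere. Plus-strand cytosines averaged 54.2 and 698 calls there, against 75.9 and 2031. In Bone_1, the minus strand was lower still away from the ends, at 409 calls in the window from 1001 to 2000. The site with the fewest calls, M:16335-16336, had 26 in Bone_1 and 53 in Bone_2, and the site with the most by mean over the samples, M:4990-4991, had 9752 and 7450.

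Both strands together, 0.365% of mitochondrial calls were methylated in Bone_1 (95% Wilson interval 0.356 to 0.375%) and 0.364% in Bone_2 (0.355 to 0.373%). This near equality held for the minus strand, whose levels were 0.357% (0.347 to 0.366%) and 0.361% (0.350 to 0.373%). It did not hold for the plus strand, where the level was 0.861% in Bone_1 (0.758 to 0.979%) and 0.367% in Bone_2 (0.353 to 0.381%), so that these intervals lay apart. The summed level of Bone_1 hides this, because only 231 of its 5788 methylated calls were on the plus strand. No other sequence with at least 10000 calls was as low, the next lowest being at 13.1% in Bone_1 and 7.78% in Bone_2. Such low levels were not particular to it at a smaller scale, since 1408 autosomal windows of 1000 bp with at least 500 calls in Bone_1, or 0.750% of them, were at or under the mitochondrial level, as were 1214 in Bone_2, or 7.30%. These percentages are likewise of unlike sets of windows and cannot be set against each other.

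Within Bone_1, the plus strand exceeded the minus strand by 0.505 percentage points, and within Bone_2 by 0.0056 points (0.255 ± 0.353, SD, n = 2). With 2 samples, an exact test on this difference cannot give a p below 0.5. In Bone_1, the plus strand was the higher one in 16 of 17 windows, and its interval lay wholly above that of the minus strand in 8. In Bone_2, it was the higher one in 9 windows, with intervals apart in 2 windows in each direction. At the 78 sites with at least 100 calls on both strands in each sample, the difference was 0.414 points in Bone_1 and 0.0533 in Bone_2. The higher level of the plus strand in Bone_1 went with its low depth, and the part of depth in it was not tested.

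The window with the highest level was the same in both samples on either strand, though on the plus strand of Bone_2 it was nearly tied. On the minus strand, the window from 1 to 1000 was highest, at 0.684% in Bone_1 (0.588 to 0.796%) and 0.610% in Bone_2 (0.533 to 0.699%), against median windows of 0.335% and 0.340%. On the plus strand, the window from 5001 to 6000 was highest, at 2.48% in Bone_1 (40 of 1615 calls) and 0.525% in Bone_2 (204 of 38877 calls), against median windows of 0.824% and 0.353%. In Bone_2, the window from 2001 to 3000 was at 0.514% (0.462 to 0.572%), which was not set apart from it. The plus strand of the window from 1 to 1000 was at 1.19% and 0.414%. In the window from 5001 to 6000, the minus strand was at 0.286% in Bone_1, its lowest value, and at 0.341% in Bone_2.

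**Figure D3:**
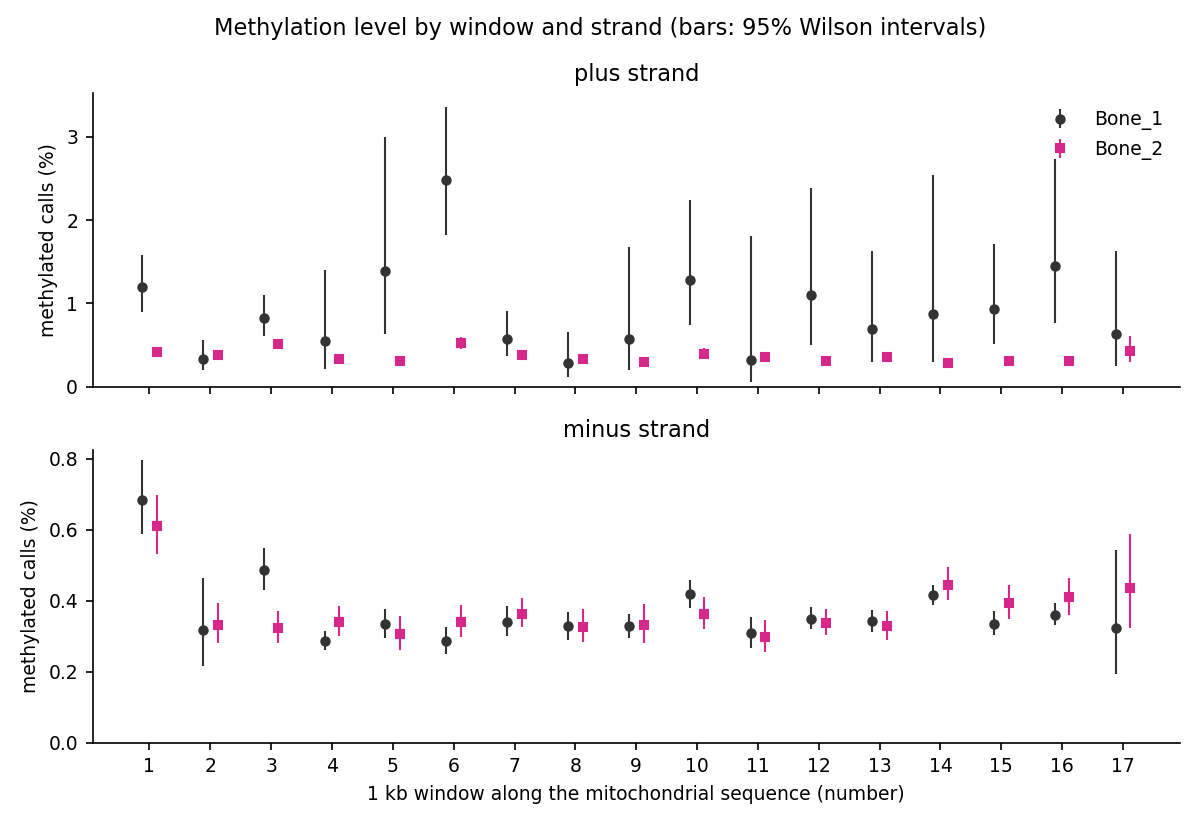
Methylated calls in percent for each 1 kb window along the mitochondrial sequence, plus strand above and minus strand below, with Bone_1 as black circles, Bone_2 as pink squares and 95% Wilson intervals as bars. The minus strand peaks in window 1 in both samples, at 0.684 and 0.610%, and the plus strand of Bone_1 has wide intervals and peaks in window 6 at 2.48%.

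Summed over strands, 4 of 17 windows differed in level between the samples by Fisher's exact test adjusted over all windows, whereas 65.7% of all windows of the series did, 64.8% being higher in Bone_1. Autosomes as a whole were at 72.4% in Bone_1 and 59.0% in Bone_2, and windows at mitochondrial levels have no room for such a gap. The shares of windows called therefore cannot be set against each other. Of the 4 mitochondrial windows called, 2 were higher in Bone_1. The window from 1 to 1000 was at 0.755% in Bone_1 and 0.504% in Bone_2 (adjusted p = 1.97e-05, Fisher's exact test), and that from 2001 to 3000 at 0.516% and 0.423% (adjusted p = 0.0115). The other two were lower in Bone_1, with 0.289% against 0.336% from 3001 to 4000 (adjusted p = 0.0474) and 0.332% against 0.410% from 5001 to 6000 (adjusted p = 0.0160, Fisher's exact test). In the last window, both strands together were lower in Bone_1 although its plus strand was higher, because only 2.13% of the calls there were on the plus strand. The plus-strand share also differed in the other windows called, being 13.9% in Bone_1 and 54.0% in Bone_2 from 1 to 1000, 8.91% and 52.6% from 2001 to 3000, and 0.469% and 39.5% from 3001 to 4000. These tests compare 1 library with another and treat calls as independent, although nearby sites share reads, so their p-values are too small. With windows of 2000 bp, 1 of 9 differed, against 81.1% of all such windows.

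Single CpG sites stayed low everywhere. The median site level was 0.335% in Bone_1 and 0.350% in Bone_2, and 11 sites exceeded 1% in Bone_1 and 3 in Bone_2, with 1 site, M:13416-13417, above 1% in both. Of the 11 in Bone_1, 8 lay in the window from 1 to 1000. By Fisher's exact test per site, adjusted over the 11796221 sites of the series that had 10 or more calls in both samples, 3 of 357 mitochondrial sites differed between the samples, all higher in Bone_1. Of all sites tested, 2.65% were called, with 2.46% higher in Bone_1 and 0.19% higher in Bone_2. The share of mitochondrial sites called was thus under the background, at far greater depth and far lower levels. At an unadjusted p under 0.05 there were 37 of 357, against 19.1% of all sites. Tested by single cytosines, 2 of 688 mitochondrial ones were called, against 3.01% of all, and they are named after their values were seen. The minus-strand cytosine at M:6805 had 0 of 1410 calls methylated in Bone_1, which allows a level of up to 0.213%, and 20 of 3229 in Bone_2, or 0.619% (adjusted p = 0.0396, Fisher's exact test). The plus-strand cytosine at M:714 had 7 of 336 in Bone_1, or 2.08%, and 7 of 2178 in Bone_2, or 0.321% (adjusted p = 0.0410, Fisher's exact test).

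The site with the smallest adjusted p was M:2711-2712, with 22 of 2599 calls methylated in Bone_1, or 0.846%, and 8 of 4252 in Bone_2, or 0.188% (adjusted p = 0.0107, Fisher's exact test). At M:363-364, the counts were 7 of 129 and 17 of 2253, or 5.43% and 0.755% (adjusted p = 0.0163, Fisher's exact test). At M:11190-11191, they were 19 of 4455 and 6 of 5955, or 0.426% and 0.101% (adjusted p = 0.0416, Fisher's exact test). The sites at M:4360-4361 and M:3492-3493 came next, with adjusted p of 0.0549 and 0.0613 in the same Fisher's exact test, and were not called. The strands were mixed differently in the samples at the 3 sites called. The plus strand held 7.43, 3.1 and 0.426% of their calls in Bone_1, and 53.2, 59.9 and 28.1% in Bone_2. On the minus strand alone, none of the 3 was called. The minus-strand cytosine at M:2712 was at 0.873% in Bone_1 and 0.352% in Bone_2 (adjusted p = 0.229, Fisher's exact test), that at M:364 at 5.6% and 1.66% (adjusted p = 0.139), and that at M:11191 at 0.428% and 0.117% (adjusted p = 0.107). With at least 20 calls in both samples, 9 of 357 sites were called, 8 of them higher in Bone_1, against 12.4% of all sites, 11.9% higher in Bone_1.

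The cytosine that stood out in both samples was the minus-strand cytosine at M:13417. In Bone_1, 302 of its 9867 calls were methylated, or 3.06% (95% Wilson interval 2.74 to 3.42%), and in Bone_2, 123 of 3795, or 3.24% (2.72 to 3.85%). These levels, 3.15% ± 0.128 (SD, n = 2), were 9.02 and 9.25 times the level of all other minus-strand cytosines. It alone gave 5.43% of the methylated minus-strand calls in Bone_1 and 3.38% in Bone_2. This cytosine was singled out after its values were seen, as the highest with at least 1000 calls in each sample.

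Its surroundings on the same strand showed no such level. The 9 other minus-strand cytosines within 150 bp lay between 0.173 and 0.384% in Bone_1 and between 0.186 and 0.427% in Bone_2, at similar depth. The nearest neighbours, 19 bp before and 26 bp after it, were at 0.173% and 0.274% in Bone_1 and at 0.427% and 0.307% in Bone_2. The other 36 minus-strand cytosines with the context tCGg together were at 0.331% and 0.319%, the highest of them at 1.03% and 0.888%. None of these neighbours or same-context cytosines came near the level at M:13417.

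The plus-strand cytosine of the same site did not share it. At M:13416, 6 of 1919 calls were methylated in Bone_2, or 0.313% (0.143 to 0.680%), and 0 of 5 in Bone_1, too few calls to give a level. By Fisher's exact test of plus against minus strand, adjusted over 3255208 sites in Bone_2, this was the only mitochondrial site called there (adjusted p = 5.65e-11), out of 356 tested. Of all sites in Bone_2, 0.0142% were called, 0.0071% with the plus strand higher. In Bone_1, the site had too few plus-strand calls to enter the test.

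In the same test within Bone_1, 2 of 331 mitochondrial sites were called, both with the plus strand higher, against 0.291% of 1258250 sites in the series, 0.161% with the plus strand higher. At M:5701-5702, 4 of 97 plus-strand calls and 4 of 2485 minus-strand calls were methylated, or 4.12% and 0.161% (adjusted p = 0.0415, Fisher's exact test). At M:5800-5801, the levels were 3.1% (4 of 129) and 0.0953% (3 of 3148) (adjusted p = 0.0281, Fisher's exact test). In Bone_2, the same sites were at 0.761% and 0.792% on the plus strand and 0.228% and 0.409% on the minus strand, and neither was called there. No mitochondrial site of 331 was called in both samples in the same direction by Fisher's exact test, and 0.168% of all sites tested in both were, too small a share to set 0 apart from it. At an unadjusted p under 0.05, there were 28 of 331 sites in Bone_1, against 3.07% of all sites, and 44 of 356 in Bone_2, against 3.24%. The mitochondrial sites were far deeper than the rest, and the part of depth in these counts was not tested.

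Of the 10 cytosines with the highest mean level among those with at least 100 calls in each sample, 6 were plus-strand cytosines between M:5766 and M:5853. Their levels were 2.36 to 3.36% in Bone_1, from 102 to 129 calls each, of which 3 or 4 were methylated. In Bone_2, they were 0.523 to 1.02%, from 1124 to 1178 calls. The cut at 100 calls set the bounds of this group. Plus-strand cytosines at M:5701 (4 of 97 calls, 4.12%) and M:5871 (4 of 94, 4.26%) were higher in Bone_1 but fell under the cut. The 7 plus-strand cytosines from M:5766 to M:5853 together had 23 of 806 calls methylated in Bone_1, or 2.85% (1.91 to 4.25%), and 53 of 8005 in Bone_2, or 0.662% (0.507 to 0.865%). They lie so close that they share reads and are not independent. This stretch was bounded by cytosines that ranked high in these same data, so its summed level is high by selection. Among plus-strand cytosines with at least 100 calls in each sample, the highest in Bone_2 lay elsewhere, at M:2435 (1.11% of 1888 calls). The other high cytosines were those at M:364 and M:13417, the minus-strand cytosine at M:16304 near the end of the reference (1.66% of 181 calls and 1.37% of 366), and the plus-strand cytosine at M:2817 (1.77% of 282 and 0.930% of 2580).

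The minus-strand cytosine at M:364 had 7 of 125 calls methylated in Bone_1, or 5.6% (2.74 to 11.1%), and 15 of 904 in Bone_2, or 1.66% (1.01 to 2.72%). Its neighbour at M:348, 16 bp away, was at 0.836% of 1914 calls and 1.56% of 1410 calls. At M:301, the levels were 0.233% and 0.503%. On the other side, the next minus-strand cytosines were at 0.978% and 0.812% (M:566) and at 1.06% and 0.608% (M:569), each in Bone_1 and Bone_2.

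Levels of minus-strand cytosines were moderately alike between the samples (Spearman's rho 0.39, Pearson's r 0.64, n = 356). Without M:13417, rho was 0.38 and r was 0.57, so that the relation in rank did not rest on it alone. That r still includes the cytosine at M:364 (5.6% and 1.66%), the highest one left in both samples. On the plus strand, rho between the samples was also 0.39 and r was 0.33, over 78 cytosines with at least 100 calls in each. The 89 minus-strand cytosines highest in Bone_1, of 356, had a level of 0.513% in Bone_2, against 0.320% for the other 267, and 76.4% of them lay above the median of the others. The 89 highest in Bone_2 had 0.527% in Bone_1, against 0.307% for the others. Both sets include M:13417, which raises these summed levels. By medians, the sets were at 0.432% in Bone_2, against 0.315% for the others, and at 0.445% in Bone_1, against 0.304%. Between the strands of the same sites, levels showed almost no relation in Bone_2 (rho -0.02, n = 356). In Bone_1, where 78 sites had enough calls on both strands, rho was 0.21.

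**Figure D4:**
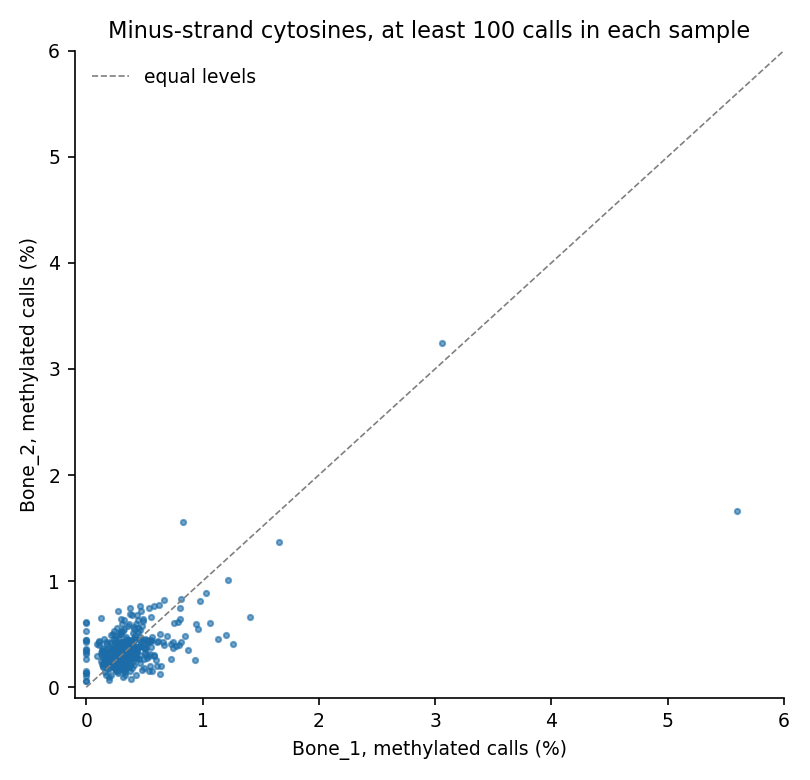
Methylated calls in percent at each of the 356 minus-strand cytosines with at least 100 calls in each sample, Bone_1 on the x axis and Bone_2 on the y axis, with a dashed line at equal levels. Most lie under 1% in both, the cytosine at 3.06% and 3.24% stands near the line, and the one at 5.6% and 1.66% lies far to the right.

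The spread among cytosines was wider than counting error. Among those with at least 100 calls in each sample, the variance on the minus strand was 8.84 times the binomial one in Bone_1 and 4.46 times in Bone_2. That of the plus strand was 1.47 and 2.85 times. Without M:13417, the minus-strand ratios were 3.25 and 2.06. The quartiles of minus-strand levels were 0.239 and 0.445% in Bone_1 and 0.247 and 0.432% in Bone_2. The Wilson intervals of sums over cytosines are therefore too narrow as a measure of how cytosines vary.

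By the base after the CpG, cytosines in CGC were the highest class in each of the 4 sets made by sample and strand. In Bone_2, CGC was at 0.445% on the plus strand (92 cytosines, 0.416 to 0.477%) and 0.442% on the minus strand (25 cytosines, 0.391 to 0.498%). CGA was at 0.346% and 0.362% there, CGG at 0.370% and 0.349%, and CGT at 0.305% and 0.358%. On the minus strand of Bone_1, CGC was at 0.464% (0.420 to 0.512%), against 0.345% in CGA, 0.378% in CGG and 0.329% in CGT. In these 3 sets, the interval of CGC lay above the others, but such intervals are too narrow because cytosines vary beyond counting error. On the minus strand of Bone_1, the cytosine at M:8767 alone gave 70 of the 388 methylated calls in CGC, from 8896 calls. Cytosines in CGC were also less deep there, at 3346 calls each, against at least 4324.5 in the other classes. On the plus strand of Bone_1, CGC was at 1.07% (0.846 to 1.36%) and its interval overlapped those of CGG (0.780 to 1.30%), CGA (0.612 to 0.995%) and CGT (0.470 to 0.856%). Medians over cytosines with at least 100 calls gave CGC the highest place in all 4 sets as well, as on the minus strand of Bone_2 with 0.445% against 0.296 to 0.359% in the other classes.

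Cytosines were split by calls into 4 classes of near equal number within each strand and sample, and the least covered class had the highest level in each of these sets. Over single cytosines with at least 100 calls in each sample, level and calls were weakly related at most, with rho of -0.01 on the plus strand of Bone_1 and -0.19 on that of Bone_2 (n = 78), and of -0.10 and -0.18 on the minus strand (n = 356). In Bone_2, the least covered class was at 0.470% on the plus strand (0.429 to 0.515%) and 0.425% on the minus strand (0.394 to 0.459%), while the other classes lay between 0.333 and 0.368%. On the minus strand of Bone_1, it was at 0.467% (0.420 to 0.519%), against 0.348 to 0.361% in the others. Depth and position overlap there. Minus-strand cytosines of the window from 1 to 1000, the highest one, averaged 1109 calls in Bone_1 and 1543 in Bone_2. The least covered minus-strand class reached up to 1821 and 2241 calls and so took in most of them. The parts of depth and position in the class levels were not tested. Among plus-strand cytosines of Bone_1, the least covered class, with 2 to 24 calls per cytosine, was at 1.2% (0.739 to 1.94%) and the most covered one, with 94 to 448 calls, at 0.865% (0.738 to 1.01%), with overlapping intervals. The least minus the most covered class, averaged over strands, was 0.225 points in Bone_1 and 0.0996 in Bone_2 (0.162 ± 0.0887, SD, n = 2). With 3 classes in place of 4, it was 0.117 and 0.0609 points, so its size depended on the number of classes. Without the 7 cytosines of highest mean level at any depth, it was -0.0091 points in Bone_1 and 0.0974 in Bone_2. Leaving out cytosines by their level lowers the least covered class by construction, because at such depth 1 methylated call gives a high level. All 7 were plus-strand cytosines with 5 to 23 calls in Bone_1, of which 1 or 2 were methylated, so the minus-strand difference of Bone_1 did not involve them.

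**Figure D5:**
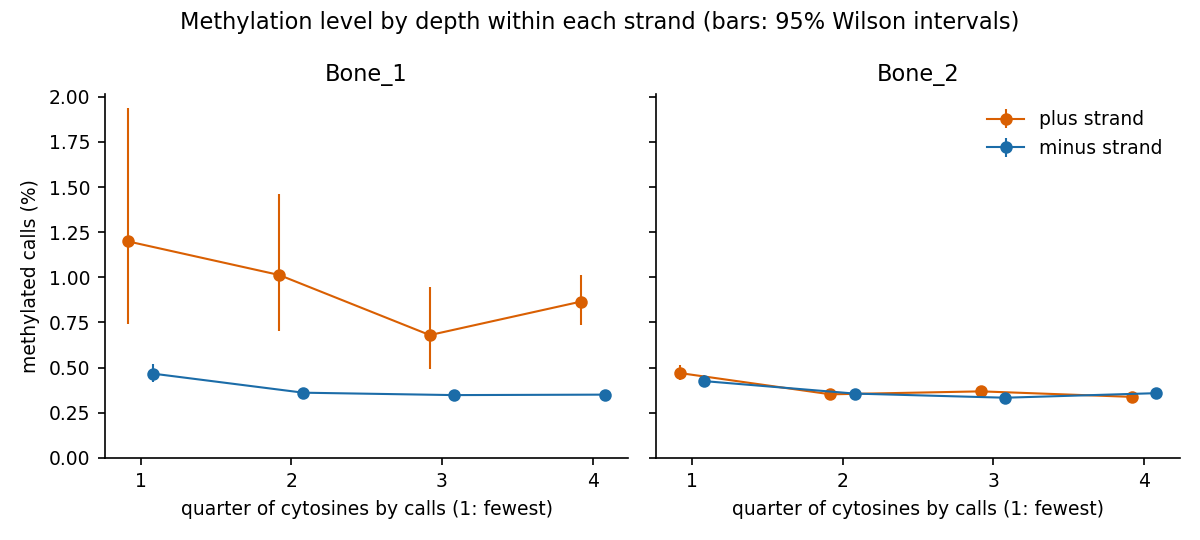
Methylated calls in percent for 4 classes of cytosines ordered by calls within each strand, from the fewest (1) to the most (4), for Bone_1 (left) and Bone_2 (right), with the plus strand in orange, the minus strand in blue and 95% Wilson intervals as bars. The first class is highest in each series, at 1.2 and 0.467% in Bone_1 and at 0.470 and 0.425% in Bone_2.

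The classes were ordered by calls, so at similar levels the number of methylated calls per cytosine rises with depth by construction. On the minus strand of Bone_1, it went from 3.73 in the least covered class to 29.2 in the most covered one. On the minus strand of Bone_2, it went from 7.41 to 14.5. Among plus-strand cytosines of Bone_1, it rose from 0.180 to 1.71 per cytosine, and 224 of its cytosines had calls but no methylated one. In Bone_2, 7 did.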

How the data were processed

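Per the labels, reads of 150-bp paired-end libraries were processed by the authors with FastQC 0.11.5, Trim Galore 0.4.5, Bowtie2 and Bismark 0.19.0 on ARS-UCD1.2, while the paper's methods name UMD3.1.1 and other versions. Duplicates were removed, which at mitochondrial depth can also remove distinct fragments with equal ends. The deposited counts are methylated and unmethylated calls per CpG cytosine and strand, not normalized. Cytosines were joined into sites by strand. Fisher's exact tests (two-sided) used sites with at least 10 calls, or windows with at least 20, in each sample or strand, with Benjamini-Hochberg adjustment at 0.05 over the whole table, and were tested on simulated data. Named were the 10 highest cytosines, the 5 sites with the most and the fewest calls (the ends of each range given) and the 5 smallest adjusted p between samples. The rule on strands gave no order, since the larger adjusted p was 1 at all sites tested. Members and lists were chosen with earlier results of these data known. After a count of 0, 3 calls of the total were allowed. The planned control region was not run, because the annotation is of another build. Scripts ran in Python 3.11.15 with scipy 1.17.1, pandas 2.3.3, numpy 2.4.6, pyarrow 21.0.0, matplotlib 3.10.9 and numba 0.67.0.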

Additional observations from a re-analysis of the deposited data

How the results depend on the processing

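The mitochondrial level of 0.364% became 0.366% with at least 100 calls per cytosine and 0.359% with at least 500. With the 100-call cut and every cytosine counted equally, the level was 0.435%. It was then 0.483% in Bone_1 and 0.386% in Bone_2, so the near equality of the samples did not hold under this setting. Chosen after seeing the data, it was 0.353% without M:13417, 0.359% on the minus strand and 0.614% on the plus strand. Most of these shifts are past the SD only because the samples were so close. The difference between least and most covered cytosines was 0.398 points with classes over both strands, which mixes strand with depth, 0.0888 with 3 classes, and 0.0441 without the 7 highest cytosines, which lowers the least covered class by construction. The range between contexts, 0.138 points, was 0.228 when the 100-call cut was applied and every cytosine counted equally. For this range, cut and weighting were not changed separately. Sites differing between samples numbered 9 with at least 20 calls per sample (12.4% of all sites called), and windows differing numbered 1 of 9 with 2000 bp (81.1% of all). All 9 windows of 2000 bp differed in strand share, as did 74.8% of all. Without one replicate, the level ranged from 0.364 to 0.365%, the strand difference from 0.0056 to 0.505 points, the depth ratio from 259 to 322, the plus-strand share from 1.69 to 41.3%, the depth difference from 0.0996 to 0.225 points, the context range from 0.103 to 0.174 points and the sites differing between strands from 1 to 2. With 2 samples such ranges say nothing about stability, and tests between samples have no such value. With at least 500 calls, no plus-strand cytosine of Bone_1 was left, so the strand difference was not computed. No paired analysis was possible because there was only 1 group. The cause of shifts was not tested unless given.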
